A study of Homo sapiens with 30 samples.

Results

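The long noncoding RNAs UCA1, EWSAT1, MALAT1, NEAT1, H19 and MEG3 were followed through the expression data of A375, a human melanoma line. They were taken by gene symbol, 6 of the 26364 genes in the count files, and all 6 were among the 15381 genes with enough counts to be tested. UCA1 and EWSAT1 had been chosen by their log2 fold change between Bottom 10 negative and Top 10 negative cells, so every comparison that uses either of these groups is given as a description with no test. Same-numbered positive and negative libraries of the 10-round groups deviated together (correlations of 0.314, 0.708 and 0.791 on the top side and 0.278, 0.549 and 0.589 on the bottom side), so the ITGB4-positive comparison is not wholly independent of that choice.

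Polyadenylated RNA was sequenced from 10 groups of 3 libraries. Cells were sorted by antibody staining for integrin beta 4 (ITGB4) into positive and negative fractions and were made to migrate through membranes with 5 µm pores, a test of how squeezing through constrictions selects or changes cells. The Bottom 10 positive and Bottom 10 negative cells had crossed in 10 rounds and were then sorted, and the Top 10 positive and Top 10 negative cells had failed to cross in 10 rounds. The Bottom 5 negative cells had crossed in 5 rounds and the Top 5 positive cells had failed to cross in 5. The Presorted positive and Presorted negative cells came from the parental line, were sorted first, and then crossed in 5 and in 4 rounds. The Parental positive and Parental negative cells were sorted with 0 rounds. Round numbers are those of the sample labels; the text on the study's design speaks of 5 rounds throughout and also of a single-cell clone, to which no sample label assigns a library. All groups are the same cell line, so nothing here speaks to other melanomas, and nothing in the labels says whether replicates were separate cultures; p-values measure the spread between these libraries.

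Long noncoding RNAs are transcripts without a known protein product that act as RNA, as scaffolds, decoys or guides, or through their own transcription. MALAT1 and NEAT1 stay in the nucleus: MALAT1 gathers in nuclear speckles, stores of splicing factors, and NEAT1 is the scaffold of paraspeckles. H19 and MEG3 are imprinted, expressed from the maternal chromosome, and hold the cluster partners IGF2 and DLK1. UCA1 (urothelial cancer associated 1) and EWSAT1 (Ewing sarcoma associated transcript 1) were named for the tumours in which they were found.

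How a transcript ends bears on how a library of polyadenylated RNA captures it, and for that reason the 3′ ends are shown, the last 40 bases of a GENCODE v29 transcript (build GRCh38, sense strand, 5′ to 3′) or, for MALAT1 and the long NEAT1, the 40 bases up to the end of an encoded A-rich tract. Capitals mark the polyadenylation hexamer AATAAA or ATTAAA, or the A-rich motif AAAAGCAAAA. UCA1 lies on chromosome 19, EWSAT1 on 15, MEG3 on 14, and MALAT1, NEAT1 and H19 on 11.
UCA1-222: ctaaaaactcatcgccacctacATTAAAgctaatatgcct
EWSAT1-203: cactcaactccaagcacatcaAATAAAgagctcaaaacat
MALAT1-202: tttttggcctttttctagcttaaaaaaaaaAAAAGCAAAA
NEAT1-202: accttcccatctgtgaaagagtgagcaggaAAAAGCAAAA
NEAT1-208: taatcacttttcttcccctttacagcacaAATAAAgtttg
H19-203: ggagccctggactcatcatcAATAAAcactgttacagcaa
MEG3-213: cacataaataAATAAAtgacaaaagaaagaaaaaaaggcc
A hexamer stood in the last 40 bases of 30.2% of the 206635 annotated transcripts, and in 26 of 36 UCA1, 3 of 8 EWSAT1, 8 of 17 MALAT1, 1 of 8 NEAT1, 6 of 12 H19 and 21 of 48 MEG3 transcripts. The A-rich motif was taken from the end of the long NEAT1 model, so that model ends in it by definition. Only 0.00532% of all transcripts ended in the motif. In MALAT1-202 it lay 353 bases before the end of the annotated model. MALAT1 and long NEAT1 are known to be cut there by RNase P and to end in a triple helix in place of a poly(A) tail, so that a library made from polyadenylated RNA holds them through internal A stretches. Their level here is the level captured, and the count files do not separate the short and long NEAT1.

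The libraries held 14258919 to 29134945 gene counts. Levels are CPM, counts of a gene per 1e6 counts on TMM-scaled library sizes, and changes are log2 fold changes with their standard error from 1 fit over all groups. The melanocyte lineage factor SOX10 ran from 287 to 1460 CPM and MITF from 23.2 to 66.3 CPM, whereas the pigment genes PMEL, MLANA, TYR and TYRP1 stayed at or below 1.68 CPM and DCT, another, had a median of 0.854 and a maximum of 13.97 CPM. ITGB4 RNA was at 168, 96.7 and 35.2 CPM in Parental positive and 24.6, 33.7 and 25.1 CPM in Parental negative cells. It was higher in the positive library of 9 of 9 same-numbered pairs in the Presorted, Bottom 10 and Top 10 groups, although ranges overlapped there. The negative sorts were not equally low in ITGB4 RNA. Presorted negative cells had 322, 27.2 and 56.4 CPM and Bottom 5 negative cells 157, 51.0 and 51.0 CPM. Top 5 positive cells had 17.9, 45.2 and 21.4 CPM. The part of ITGB4 level in the comparisons of these groups with Parental cells was not tested. A set of 6 libraries stood apart on the second principal component: Top 10 negative replicate 1, Bottom 10 positive replicate 3, Presorted negative replicate 2, Bottom 5 negative replicate 2, and Top 5 positive replicates 1 and 3. In bulk RNA, fewer cells expressing a gene and less RNA per cell cannot be told apart.

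UCA1 was lowest in cells that had failed to cross 10 times and were ITGB4-negative. Its highest means were in Parental positive (71.0 CPM), Presorted positive (69.0 CPM), Presorted negative (47.2 CPM) and Bottom 5 negative cells (43.4 CPM). It had 5.71, 11.5 and 17.4 CPM in Bottom 10 negative cells, against 0.130, 0.454 and 1.48 CPM (3, 10 and 29 counts) in Top 10 negative cells. No value overlapped, and the fitted difference was 4.10 ± 1.02 (SE) on the log2 scale, the value for which it was chosen, in a comparison where 1.33% of all genes were called. Without Top 10 negative replicate 3 that difference was 5.29, and without the libraries that stood apart it was 3.59. Group means ran from 0.687 CPM in Top 10 negative to 71.0 CPM in Parental positive cells, a 103-fold span. Of 9 neighbouring steps in the order of group means, 8 overlapped, the exception being the step between Top 10 positive and Top 10 negative.

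**Figure D1:**
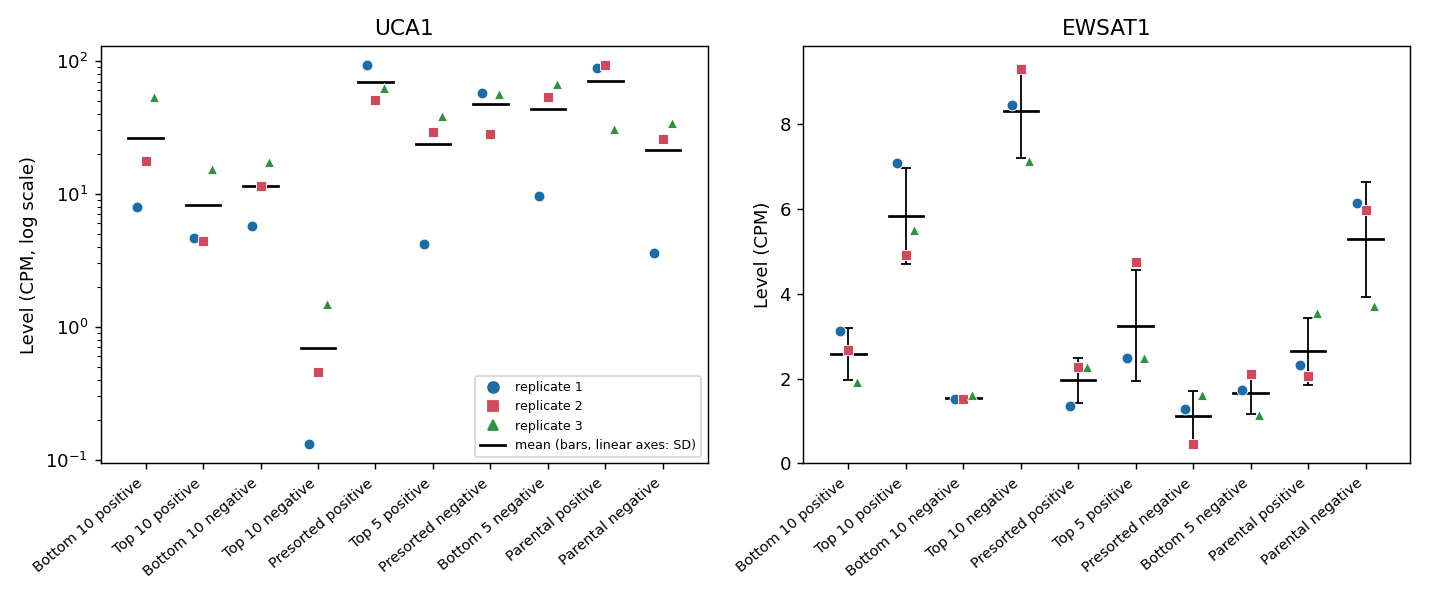
Levels of UCA1 (left, CPM on a log axis) and EWSAT1 (right, CPM on a linear axis, bars are SD) in each of the 3 libraries of the 10 groups, with the group mean as a line. UCA1 is lowest in Top 10 negative (mean 0.687 CPM) and replicate 1 is the lowest of the 3 in 6 of 10 groups; EWSAT1 is highest in Top 10 negative (mean 8.30 CPM).

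In the ITGB4-positive sort, Bottom 10 positive cells had 7.99, 17.7 and 53.8 CPM of UCA1, against 4.64, 4.41 and 15.5 CPM in Top 10 positive cells. The ranges overlapped, while each of the 3 same-numbered pairs was higher in Bottom 10. The difference of 1.69 ± 0.86 did not pass the test (edgeR adjusted p = 0.594). With the replicate number as a block, which the libraries' joint deviations called for here (correlations 0.265, 0.573 and 0.547), it was 1.56 ± 0.25 in a fit of these 2 groups (edgeR adjusted p = 0.0317). The block also raised the share of all genes called, to 4.14% of those tested. Without the libraries that stood apart, among them Bottom 10 positive replicate 3, the unblocked difference was 0.64.

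UCA1 varied widely between replicates of a group. Parental negative cells had 3.57, 25.7 and 34.4 CPM, Top 5 positive cells 4.17, 29.1 and 38.2 CPM, and Bottom 5 negative cells 9.65, 54.0 and 66.6 CPM. In each of these groups replicate 1 was far below the others. Replicate 1 was the lowest in 6 of 10 groups and replicate 3 the highest in 7 of 10.

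Against the Parental cells, UCA1 had 4.64, 4.41 and 15.5 CPM in Top 10 positive cells and 89.1, 93.4 and 30.6 CPM in Parental positive cells. The groups did not overlap, yet the difference of −3.12 ± 0.90 missed the threshold by edgeR (adjusted p = 0.166) and passed it by DESeq2 (adjusted p = 0.0185). Top 5 positive minus Parental positive was −1.57 ± 0.85 (edgeR adjusted p = 0.319) and Bottom 10 positive minus Parental positive −1.43 ± 0.84 (edgeR adjusted p = 0.661); these comparisons share the Parental positive libraries. Presorted positive cells, at 93.5, 50.7 and 62.7 CPM, lay among the Parental positive values, with a difference of −0.04 ± 0.82 (edgeR adjusted p = 1.00), an interval that leaves room for changes of either sign. In the negative sort, Bottom 5 negative minus Parental negative was 1.03 ± 0.84 (edgeR adjusted p = 0.792), with all 3 same-numbered pairs higher in Bottom 5. With the replicate block over these 2 groups, also added after seeing the data, it was 1.14 ± 0.16 (edgeR adjusted p = 0.0125, where 3.82% of genes were called). Presorted negative cells had 57.4, 28.1 and 56.1 CPM, 1.15 ± 0.84 above Parental negative cells (edgeR adjusted p = 0.446). Parental positive minus Parental negative was 1.74 ± 0.85 (edgeR adjusted p = 1.00).

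The genes whose log2 levels followed UCA1 most closely over the 30 libraries, among 13355 compared, were IL7R, the interleukin 7 receptor (r = 0.95), the kinase gene STK38 (r = 0.93) and SERPINB7, a serine protease inhibitor gene (r = 0.92). The most opposite were ERO1B, an endoplasmic reticulum oxidase gene, and VGF, a secretory granule protein gene (r = −0.91 each). These pairs share libraries and groups; within groups IL7R still gave r = 0.93 and VGF r = −0.89, so the replicate-to-replicate swings of UCA1 ran along with those genes. IL7R spanned 1.41 to 83.1 CPM and VGF 62.5 to 3367 CPM.

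EWSAT1 had higher mean levels in the Top 10 than in the Bottom 10 groups, where UCA1 had lower ones, and it fell in Presorted negative and Bottom 5 negative cells relative to Parental negative cells. It had 1.53, 1.53 and 1.60 CPM in Bottom 10 negative cells, against 8.46, 9.30 and 7.13 CPM in Top 10 negative cells. The groups were far apart and the difference for which it was chosen was −2.41 ± 0.37. Its levels were low throughout, 6 to 205 counts a library, so counting error is part of each value.

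Among comparisons open to a test, EWSAT1 was lower in Presorted negative cells, at 1.27, 0.459 and 1.61 CPM, than in Parental negative cells, at 6.14, 5.98 and 3.72 CPM. Every Presorted negative value was below every Parental negative one, with a difference of −2.20 ± 0.37 (edgeR adjusted p = 0.00275), a 4.58-fold fall. It was 1 of 6 members called there, where 2% of all genes were. It passed in 6 of 6 fits that left out 1 library (adjusted p 0.00259 to 0.0192) and was −1.87 without the libraries that stood apart (adjusted p = 0.0101), but missed in a fit of these 2 groups alone (adjusted p = 0.304).

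EWSAT1 was also lower in Bottom 5 negative cells, at 1.73, 2.11 and 1.15 CPM, than in the same Parental negative libraries. The difference was −1.66 ± 0.37 (edgeR adjusted p = 0.0276), a 3.17-fold fall, with no overlap. It was again 1 of 6 members, against 0.858% of genes. This call was less firm: it was lost in 5 of 6 fits that left out a library (adjusted p up to 0.179 without Bottom 5 negative replicate 3). Without the libraries that stood apart it was −1.89 (adjusted p = 0.0151). Bottom 10 negative cells, described only, were 1.76 lower than Parental negative cells on the log2 scale (−1.76 ± 0.37), and Top 10 negative cells 0.65 ± 0.35 higher. These 4 comparisons share the Parental negative libraries.

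Among the markers of other cells, the fibroblast gene DCN was called higher in Presorted negative than in Parental negative cells (1.63 ± 0.43, edgeR adjusted p = 0.0495), at 1.86 and 0.591 CPM on average. Of the 8 fibroblast markers 6 were tested, and DCN was the 1 called, where 0.904% of all genes were called higher. Of these 6, 3 were higher, and the list's median was 0.02, against 0.01 over all genes. The summed level of the 8 was 23.0 to 58.1 CPM in Presorted negative and 35.5 to 47.9 CPM in Parental negative cells. None of them was at 0 in every library. Over the 30 libraries the collagen genes COL1A2 and COL3A1 stayed at or below 0.497 CPM, while COL1A1 ran from 1.53 to 17.7 CPM, LUM from 1.40 to 11.4 CPM and PDGFRB from 7.13 to 34.9 CPM. Whether any such cells were present, and their part in the EWSAT1 difference, was not tested.

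In the ITGB4-positive sort the direction was the same without passing. EWSAT1 had 3.13, 2.68 and 1.92 CPM in Bottom 10 positive cells, against 7.09, 4.91 and 5.51 CPM in Top 10 positive cells. All 3 Bottom 10 values were the lower ones. The difference of −1.18 ± 0.36 had an edgeR adjusted p of 0.162. It was 0.0445 with the replicate block over these 2 groups, added after seeing the data, and 0.0249 by DESeq2. No member passed in Bottom 10 positive minus Top 10 positive by edgeR, where 0.943% of genes did, and 2 of 6 had an unadjusted p under 0.05 (DESeq2 called 1 of 6 members and 1.85% of genes). Top 10 positive cells lay above Parental positive cells, at 2.31, 2.07 and 3.55 CPM, by 1.14 ± 0.35 (edgeR adjusted p = 0.215, DESeq2 adjusted p = 0.0407), with no overlap.

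Before migration, Parental positive cells had less EWSAT1 than Parental negative cells, 2.31, 2.07 and 3.55 CPM against 6.14, 5.98 and 3.72 CPM. The groups did not overlap, and the difference of −0.99 ± 0.35 did not pass (edgeR adjusted p = 0.672). Presorted positive cells had 1.35, 2.26 and 2.27 CPM, a difference of −0.44 ± 0.36 from Parental positive cells (edgeR adjusted p = 1.00), and 0.76 ± 0.37 from Presorted negative cells (edgeR adjusted p = 0.999). No group was sorted first and then kept without crossing, so crossing cannot be told apart from other handling after the sort. Whether Presorted minus Parental differed between the sorts was tested after seeing the data. The value was (Presorted positive minus Parental positive) minus (Presorted negative minus Parental negative). It was 1.76 ± 0.51, with an edgeR p of 0.00223 before and 0.998 after adjustment over 15381 genes, of which 0 were called and 555 had an unadjusted p under 0.05.

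Genes most like EWSAT1 were APLP2, an amyloid precursor family gene, ELMO1, an engulfment and motility adaptor gene, and CTSZ, a cathepsin gene (r = 0.88 each over 30 libraries). The most opposite were LRRCC1, a centrosome protein gene (r = −0.89), and TM4SF18 (r = −0.85). Within groups these values were weaker, r = 0.57 for APLP2 and −0.49 for LRRCC1, so most of the likeness lay between groups.

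**Figure D2:**
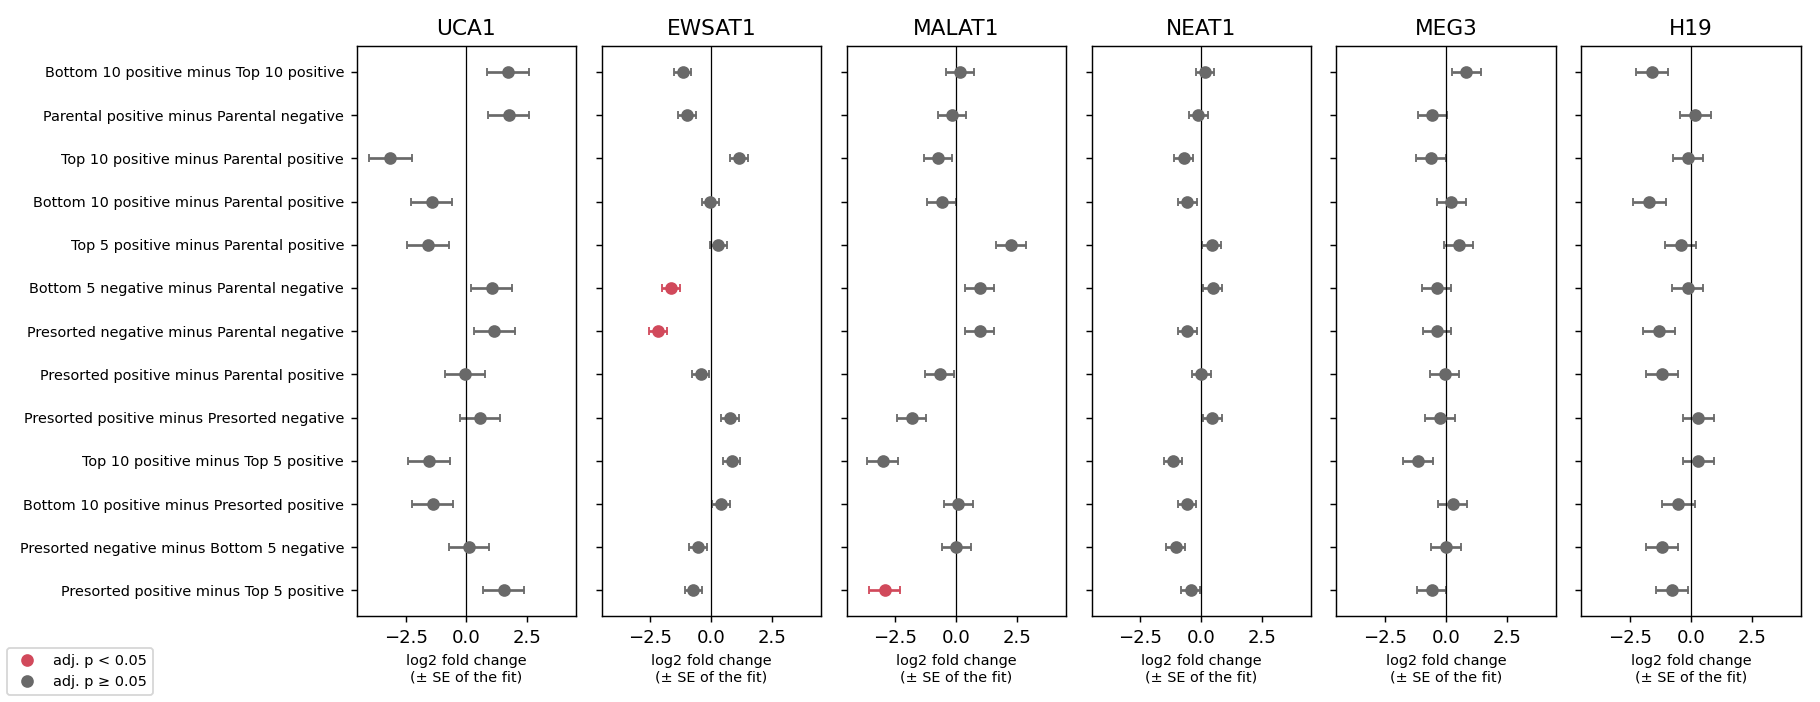
Log2 fold change with its SE for the 6 RNAs (columns) in the 13 comparisons open to a test (rows), positive where the group named first in the row is higher. Red points, EWSAT1 against Parental negative cells in Bottom 5 negative (−1.66) and Presorted negative (−2.20) and MALAT1 in Presorted positive minus Top 5 positive (−2.94), have an edgeR adjusted p under 0.05.

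Over the 13 comparisons, 3 of 78 tests on the 6 RNAs passed by edgeR and 8 by DESeq2. By edgeR 15 of the 78 had an unadjusted p under 0.05, against 10.5% of tests over all genes. Besides the calls named for EWSAT1, MALAT1 was the other, 1 of 6 members in Presorted positive minus Top 5 positive, where 2.05% of genes were called. In the remaining comparisons 0 of 6 were called by edgeR, beside 0.0585% of genes for Parental positive minus Parental negative, 0.384% for Top 10 positive minus Parental positive, 0.247% for Bottom 10 positive minus Parental positive, 0.163% for Top 5 positive minus Parental positive and 0.039% for Presorted positive minus Parental positive. The share of genes was 0.0455% for Top 10 positive minus Top 5 positive, 0.208% for Bottom 10 positive minus Presorted positive, and 0% for Presorted positive minus Presorted negative and for Presorted negative minus Bottom 5 negative, where 565 and 353 genes had an unadjusted p under 0.05 and DESeq2 also called 0. At an unadjusted p under 0.05 these 9 comparisons held 0 to 3 members each, beside 2.30 to 21.7% of all genes; the comparison with 3 members, Top 10 positive minus Top 5 positive, was the one with 21.7%. DESeq2 called 2 members in Top 10 positive minus Parental positive (1.4% of genes), 1 in Top 5 positive minus Parental positive (0.547%) and 1 in Top 10 positive minus Top 5 positive (1.02%). It also called EWSAT1 in Presorted negative minus Parental negative (4.71%) and Bottom 5 negative minus Parental negative (2.1%) and MALAT1 in Presorted positive minus Top 5 positive (5.21%), and 0 members in Parental positive minus Parental negative (0.501%), Bottom 10 positive minus Parental positive (0.755%), Presorted positive minus Parental positive (0.156%) and Bottom 10 positive minus Presorted positive (0.885%).

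MALAT1 had its highest mean in Top 5 positive cells. Presorted positive cells were sorted first and then crossed in 5 rounds, whereas Top 5 positive cells failed to cross in 5. Order of sorting and crossing differ together here and cannot be told apart, for MALAT1 and for any other gene. Presorted positive cells had 555, 326 and 385 CPM, against 6479, 1551 and 1705 CPM in Top 5 positive cells. The groups did not overlap, and MALAT1 was lower in Presorted positive cells, with a log2 difference of −2.94 ± 0.63 (edgeR adjusted p = 0.0125), 7.69-fold. Without Top 5 positive replicate 1 it was −1.96 (adjusted p = 0.159), and the call was kept in 2 of 6 fits that left out a library; it was also lost without Presorted positive replicate 1, 2 or 3 (adjusted p 0.0532, 0.0729 and 0.0726).

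Top 5 positive replicates 1 and 3 belong to the libraries that stood apart, in which MALAT1 ran from 589 to 6479 CPM (median 2160, 6 libraries), against 323 to 1551 CPM (median 510) in the other 24. Those 6 also had 9.16 to 13.3% of reads matching more than 1 place, against 7.80 to 9.21% in the other 24. Leaving them out gave −1.88 for Presorted positive minus Top 5 positive (edgeR adjusted p = 0.0263), with Top 5 positive then resting on 1 library assumed to vary like the rest. The part of library quality in the MALAT1 difference was not tested.

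Top 10 positive cells, at 384, 379 and 444 CPM of MALAT1, lay below the same Top 5 positive libraries by −3.01 ± 0.63 (edgeR adjusted p = 0.0833, DESeq2 adjusted p = 0.000343). Top 5 positive cells lay above Parental positive cells, at 779, 513 and 741 CPM, by 2.26 ± 0.61 (edgeR adjusted p = 0.221, DESeq2 adjusted p = 0.024). Neither pair overlapped. Of 6 fits that left out 1 library, each passed in 1, without Top 5 positive replicate 2 (edgeR adjusted p = 0.0383 and 0.0349). Without Top 5 positive replicate 1 the differences were −2.04 (edgeR adjusted p = 0.303) and 1.27 (edgeR adjusted p = 0.846), and without the libraries that stood apart −1.94 and 1.19. Presorted negative cells had 766, 3348 and 371 CPM and Bottom 5 negative cells 1117, 2615 and 742 CPM, and the high value in each was replicate 2, a library that stood apart. Group means in all 9 neighbouring steps overlapped.

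**Figure D3:**
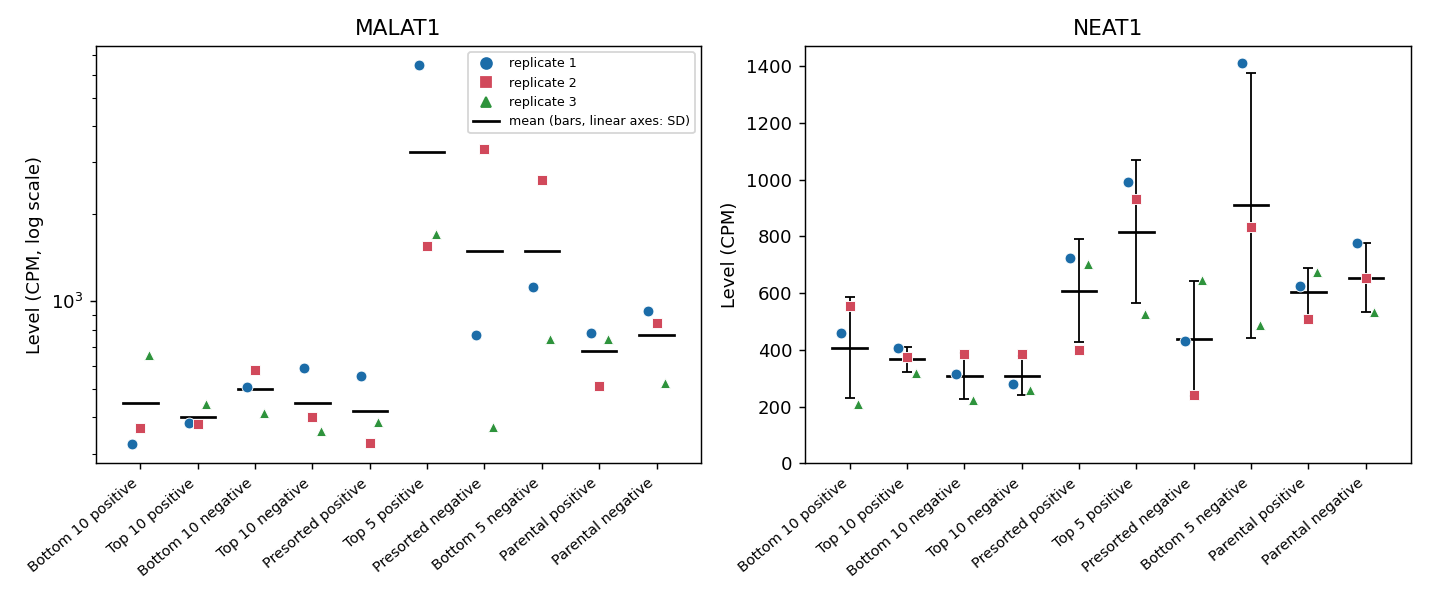
Levels of MALAT1 (left, CPM on a log axis) and NEAT1 (right, CPM on a linear axis, bars are SD) in each of the 3 libraries of the 10 groups, with the group mean as a line. MALAT1 reaches 6479 CPM in Top 5 positive replicate 1, and NEAT1 stays between 209 and 1411 CPM.

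NEAT1 varied less, 209 to 1411 CPM over 30 libraries, and passed no test. Group means ran from 309 CPM in Bottom 10 negative to 910 CPM in Bottom 5 negative cells, and every neighbouring pair overlapped. The 4 groups with 10 rounds had the 4 lowest means, from 309 to 408 CPM. Bottom 5 negative cells had 1411, 832 and 488 CPM and Parental negative cells 776, 653 and 532 CPM, an overlap, with a difference of 0.48 ± 0.38 (edgeR adjusted p = 0.791). Top 10 positive cells had 406, 374 and 319 CPM, against 992, 931 and 527 CPM in Top 5 positive cells. Those groups did not overlap, and the difference was −1.16 ± 0.39 (edgeR adjusted p = 0.173).

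Both nuclear RNAs were higher where more reads fell outside annotated genes, a share of 11.4 to 18.2% of the reads listed. Over 30 libraries the share correlated with log2 NEAT1 at r = 0.72 and with log2 MALAT1 at r = 0.63, while MALAT1 gave r = 0.81 with the share of reads that matched more than 1 place. All values of a library come from the same reads, and groups differ in both. Libraries with 10 rounds lay at the low end of that share, and its part in their NEAT1 levels was not tested.

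**Figure D4:**
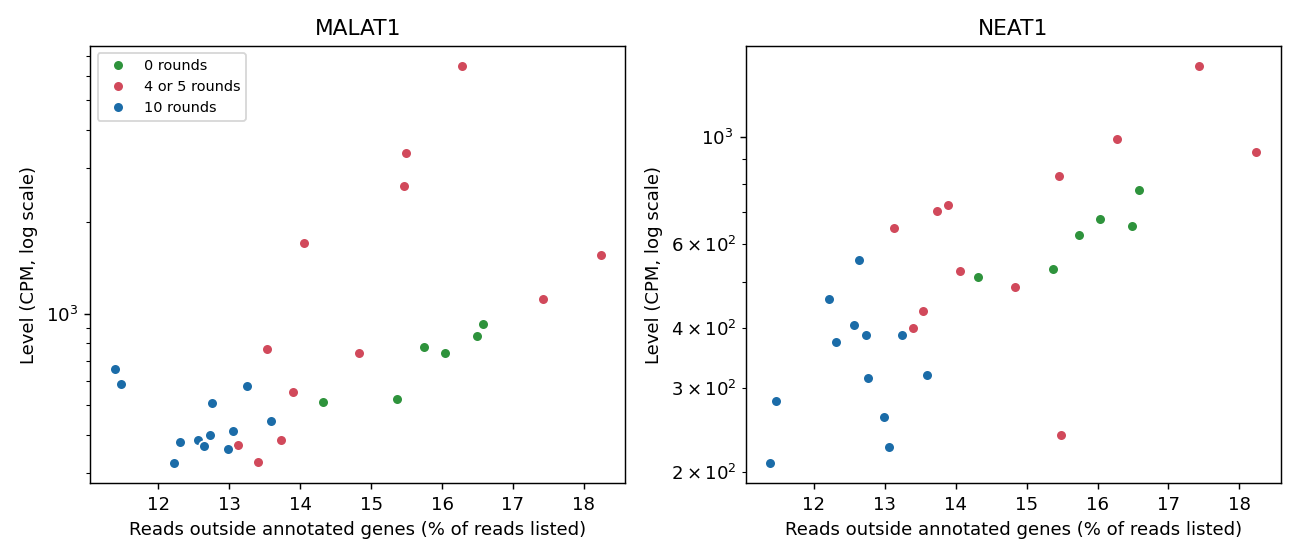
Levels of MALAT1 (left) and NEAT1 (right), CPM on log axes, against the percent of listed reads outside annotated genes, 1 point a library, coloured by 0, 4 or 5, and 10 rounds. Libraries with 10 rounds lie at the low end of the share, and NEAT1 rises with the share (r = 0.72 over 30 libraries).

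RNAs for proteins of the structures that MALAT1 and NEAT1 sit in did not pass. Of 22 paraspeckle genes and 17 genes of nuclear speckles and MALAT1 processing, 0 were called by edgeR in any of the 13 comparisons. An unadjusted p under 0.05 came in 7 of 286 and 13 of 221 tests, against 10.5% over all genes. In Presorted positive minus Top 5 positive their medians were 0.00 and −0.19, against −0.03 over all genes. Over the 13 comparisons the paraspeckle medians ran from −0.18 to 0.21. The speckle medians ran from −0.43 in Top 10 positive minus Top 5 positive (3 of 17 genes higher) to 0.30 in Top 5 positive minus Parental positive (9 of 17 higher). In Top 10 positive minus Parental positive 1 of 17 speckle genes was higher (median −0.25, against 0.01 over all genes). The RNA most like MALAT1 was MIRLET7BHG, the host of let-7 microRNAs (r = 0.90 over 30 libraries, 0.83 within groups), followed by LOC650226 and UPF3A, a nonsense-mediated decay gene (r = 0.90 and 0.86). The most opposite were GMCL1 and RELA, an NF-kappa-B subunit gene (r = −0.89 each). NEAT1 was most like AHSA2 (r = 0.86), LOC102724814 (0.84) and CLDN15, a claudin gene (0.83).

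H19 had its lowest group means in Bottom 10 positive, Presorted negative and Presorted positive cells, and passed no test without a block. Bottom 10 positive cells had 2.57, 1.01 and 2.60 CPM, against 4.17, 3.91 and 10.4 CPM in Top 10 positive cells. Again all Bottom 10 values were lower. The difference was −1.59 ± 0.66 (edgeR adjusted p = 0.406), and −1.50 with the replicate block over the 4 groups with 10 rounds (edgeR adjusted p = 0.0218, where 7.75% of genes were called), but the block over these 2 groups gave an adjusted p of 0.0615. Against Parental positive cells, at 8.23, 5.08 and 6.75 CPM, Bottom 10 positive cells were −1.70 ± 0.66 (edgeR adjusted p = 0.473) and Presorted positive cells, at 3.63, 1.67 and 3.46 CPM, −1.19 ± 0.64 (edgeR adjusted p = 1.00). Neither pair overlapped. Presorted negative cells had 2.83, 0.229 and 3.86 CPM, the low value resting on 3 counts, against 3.16, 6.30 and 8.22 CPM in Parental negative cells, a difference of −1.31 ± 0.65 (edgeR adjusted p = 0.265).

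**Figure D5:**
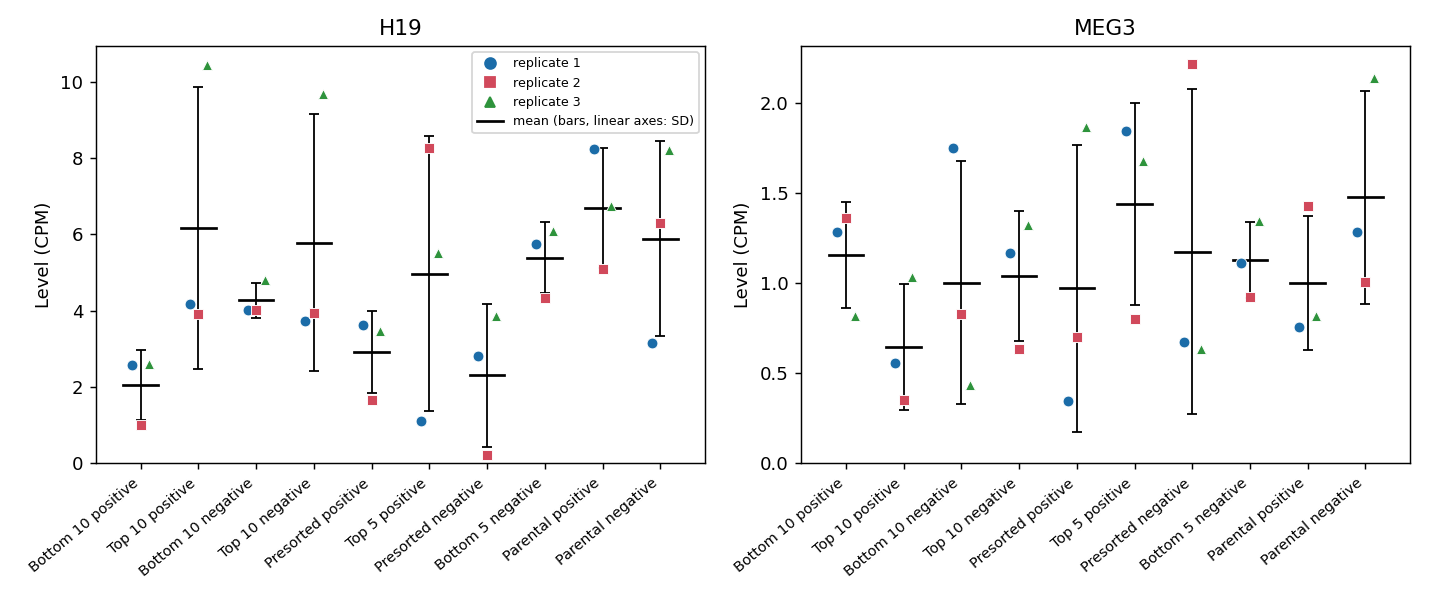
Levels of H19 (left) and MEG3 (right), CPM on linear axes, in each of the 3 libraries of the 10 groups; lines are means and bars SD. H19 has its lowest means in Bottom 10 positive (2.06 CPM), Presorted negative (2.30 CPM) and Presorted positive (2.92 CPM), and MEG3 stays at or below 2.22 CPM.

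MEG3 was low, 7 to 38 counts a library and 0.348 to 2.22 CPM. It had 1.29, 1.36 and 0.821 CPM in Bottom 10 positive cells, against 0.559, 0.351 and 1.03 CPM in Top 10 positive cells, an overlap, with a difference of 0.84 ± 0.61 (edgeR adjusted p = 0.802). All neighbouring group means overlapped.

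Around MEG3, RTL1, a retrotransposon-derived gene expressed from the paternal chromosome of the DLK1-MEG3 domain, was the 1 of 4 tested genes of the domain called in any comparison. The comparisons that called RTL1, Bottom 10 positive minus Top 10 positive and Presorted negative minus Parental negative, called 0.943% and 2% of all genes. RTL1 was low throughout. It had 0, 0 and 1 counts in Bottom 10 positive cells, against 23, 20 and 19 counts in Top 10 positive cells (edgeR adjusted p = 0.0391). Pooled over the libraries, Bottom 10 positive cells had 51.0-fold less (95% exact binomial interval 8.82 to 2047, counting error only). It had 0 counts in all 3 Presorted negative libraries, against 5, 14 and 19 counts in Parental negative cells (edgeR adjusted p = 0.0184), at least 15.3-fold lower over a group floor of 3 counts, with a lower 95% exact binomial limit of 11.8-fold (counting error only). DLK1 and MEG9 were near 0, with 23 and 13 counts over all libraries.

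Around H19, CDKN1C, a cell cycle inhibitor gene of the same imprinted region, was the 1 of 12 tested genes called in any comparison. It was lower in Presorted positive cells, at 8.34, 13.8 and 6.01 CPM, than in Top 5 positive cells, at 37.7, 38.7 and 63.0 CPM. The difference was −2.31 ± 0.58 (edgeR adjusted p = 0.0344, where 2.05% of genes were called), with no overlap. Of 17 imprinted genes elsewhere, GNAS, encoding a stimulatory G protein, NDN, encoding necdin, and GRB10, encoding a growth factor receptor adaptor, were called. The comparisons that called these genes called 0.208 to 2.05% of all genes. GNAS was lower in Bottom 10 positive than in Top 10 positive cells (−1.21 ± 0.26, edgeR adjusted p = 0.0219), and lower in Presorted negative (−1.56 ± 0.26, edgeR adjusted p = 0.00275) and Bottom 5 negative cells (−1.48 ± 0.26, edgeR adjusted p = 0.0055) than in Parental negative cells. It was higher in Top 10 positive than in Parental positive cells (1.35 ± 0.26, edgeR adjusted p = 0.0149) and lower in Presorted positive than in Top 5 positive cells (−1.25 ± 0.26, edgeR adjusted p = 0.011). The list's medians in the GNAS comparisons with a Bottom or Presorted negative group were 0.09, −0.33 and −0.16, against 0.03, 0.01 and 0.02 over all genes.

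NDN was higher in Bottom 10 positive cells, at 18.8, 15.4 and 30.0 CPM, than in Parental positive cells, at 8.16, 8.95 and 6.05 CPM (1.47 ± 0.31, edgeR adjusted p = 0.0402), and than in Presorted positive cells (1.85 ± 0.32, edgeR adjusted p = 0.00772). It was lower in Bottom 5 negative than in Parental negative cells (−1.28 ± 0.31, edgeR adjusted p = 0.0484) and in Presorted positive than in Top 5 positive cells (−1.84 ± 0.32, edgeR adjusted p = 0.00221). GRB10 was lower in Presorted negative cells, at 3.54, 3.21 and 6.63 CPM, than in Parental negative cells, at 83.6, 26.6 and 20.7 CPM (−3.27 ± 0.75, edgeR adjusted p = 0.0218), and lower in Presorted positive than in Top 5 positive cells (−3.79 ± 0.78, edgeR adjusted p = 0.0088).

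Other long noncoding RNAs moved in few cases. Of 51 tested cancer and chromatin lncRNAs, 2 were called higher in Presorted negative than in Parental negative cells (0.904% of genes were), MIR4435-2HG (1.26 ± 0.32, edgeR adjusted p = 0.0405) and OIP5-AS1 (0.52 ± 0.14, edgeR adjusted p = 0.0447). In that comparison 1 was lower (1.1% of genes were), TINCR, named for its role in epidermal differentiation, at 1.51, 0.994 and 1.20 CPM in Presorted negative cells, against 4.38, 3.86 and 2.76 CPM in Parental negative cells. CRNDE was lower in Presorted positive than in Top 5 positive cells (−1.92 ± 0.49, edgeR adjusted p = 0.039), where 2.05% of genes were called. The list's medians were −0.01 and −0.42 in these comparisons, against 0.01 and −0.03 over all genes.

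Of 12 tested microRNA host genes, MIR99AHG and MIRLET7BHG were called, in comparisons that called 0.0455 to 2.05% of all genes. MIR99AHG was higher in Bottom 10 positive cells, at 4.14, 4.55 and 3.76 CPM, than in Parental positive cells, at 0.797, 0.953 and 1.09 CPM (2.12 ± 0.42, edgeR adjusted p = 0.0217). It was also higher in Bottom 10 positive than in Presorted positive cells (1.97 ± 0.42, edgeR adjusted p = 0.0451) and lower in Presorted positive than in Top 5 positive cells (−1.80 ± 0.42, edgeR adjusted p = 0.0219). MIRLET7BHG, the gene most like MALAT1, was lower in Presorted positive cells, at 6.41, 2.10 and 5.10 CPM, than in Top 5 positive cells, at 30.0, 12.4 and 14.5 CPM (−2.05 ± 0.52, edgeR adjusted p = 0.0358), and lower in Top 10 positive than in the same Top 5 positive cells (−2.83 ± 0.53, edgeR adjusted p = 0.0441). Of 20 tested snoRNA host genes, SNHG16 was lower in Presorted positive than in Top 5 positive cells (−1.02 ± 0.27, edgeR adjusted p = 0.0453). There 2.05% of all genes were called, and the list's median was −1.06 against −0.03 over all genes. The libraries that stood apart include 2 of the 3 Top 5 positive libraries, and their part in the comparisons with that group was not tested.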

How the data were processed

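RNA-seq of A375 cells was available as 30 libraries. The authors deposited, for each library, a file of raw read counts by gene symbol. The submitters' processing notes name STAR, HTSeq, DESeq and hg19; the sources used here give no versions, strand setting or gene annotation, so reads from antisense transcripts, which some of these loci have, could not be separated. Reads assigned to no gene (22.1 to 31.8%) were left out of library sizes. Genes were filtered with edgeR 4.0.16 (minimum count 10, minimum total 15, 15381 kept), scaled by TMM, and fitted in 1 quasi-likelihood model over the 10 groups in R 4.3.3, with p-values adjusted by Benjamini-Hochberg over all tested genes and called under 0.05. An SE is the absolute log2 fold change divided by the root of F, and log levels used a prior count of 2. The fit was tested on simulated counts. For 3 against 3 libraries the smallest exact permutation p is 0.1, so no such test was used.

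The members, lists and neighbours were chosen with earlier results of these data known. Named genes are the 6 RNAs, called members of the lists (up to 4 a list and comparison), their neighbours, and the 3 most and 2 least correlated genes with each. Some results under this rule are not reported here. Alternatives were DESeq2 1.42.0, RLE scaling, no filter, only the groups compared, replicate blocks, and leaving out each library or the 6 that stood apart. The block within only the 2 groups compared was added after seeing the data, where every same-number correlation was over 0.1. Replicate numbers paired the libraries, with every same-number correlation over 0.1, in Bottom 10 against Top 10 of each sort, positive against negative within Bottom 10, Top 10 and Presorted, Bottom 5 negative against Parental negative, and Presorted negative against Bottom 5 negative; elsewhere they did not. No library was a copy of another (lowest chi-square per degree of freedom 11.6). Sequences came from GENCODE v29 transcripts and chromosomes from RefSeq, both of GRCh38, so no coordinates are given.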

Additional observations from a re-analysis of the deposited data

Results flagged for a closer look

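The difference in EWSAT1 between the ITGB4 sorts had opposite signs in different groups. In the Parental, Top 10 and Bottom 10 groups every library of the positive sort lay on one side of the negative sort. It was −0.9931 on the log2 scale for Parental positive minus Parental negative, which did not pass (edgeR adjusted p = 0.672). It was −0.5063 for Top 10 positive minus Top 10 negative, but 0.7318 for Bottom 10 positive minus Bottom 10 negative. Presorted positive minus Presorted negative was 0.76 ± 0.37, with ranges that overlapped. Levels were 2.31, 2.07 and 3.55 CPM in Parental positive and 6.14, 5.98 and 3.72 CPM in Parental negative cells. They were 7.09, 4.91 and 5.51 CPM in Top 10 positive and 8.46, 9.30 and 7.13 CPM in Top 10 negative cells, against 3.13, 2.68 and 1.92 CPM in Bottom 10 positive and 1.53, 1.53 and 1.60 CPM in Bottom 10 negative cells. The nearest libraries lay within counting error of each other. Their 95% counting intervals were 2.86 to 4.36 and 2.87 to 4.73 CPM in Parental positive and negative cells. They were 6.05 to 8.26 and 6.00 to 8.41 CPM in Top 10, and 1.27 to 2.77 and 1.13 to 2.21 CPM in Bottom 10 positive and negative cells. Whether the Top 10 and Bottom 10 differences departed from each other or from the others was not tested, because the 10-round negative groups were used to choose the gene. EWSAT1 was chosen for being lower in Bottom 10 negative than in Top 10 negative cells. That choice by itself pushes the Top 10 and Bottom 10 differences between sorts toward opposite signs.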

How the results depend on the processing

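Over the 13 comparisons, 878 alternative values of the 6 RNAs kept their direction and side of the threshold, 14 came to pass it, 12 no longer passed and 62, in 24 results, changed sign. Of those 62 values 0 passed the test by edgeR, nor did the reported values they came from, which reached at most 0.97 in size. For EWSAT1 in Bottom 10 positive minus Top 10 positive, the values that came to pass were −1.1854 by DESeq2 and −1.1794 and −1.1739 with the replicate block over 4 and 2 groups. The block over 4 and 2 groups gave 1.5337 and 1.5572 for UCA1, and over 4 groups −1.5049 for H19. The 4 groups include those by which UCA1 and EWSAT1 were chosen, so for these genes that fit is a description. In Bottom 5 negative minus Parental negative the block over 2 groups also brought UCA1 past the threshold (1.1362). A fit of only the groups compared lost EWSAT1 in Bottom 5 negative minus Parental negative (−1.6501) and Presorted negative minus Parental negative (−2.2110), and MALAT1 in Presorted positive minus Top 5 positive (−2.9353). Leaving out 1 library gave −1.87 to −1.45, −2.54 to −1.86 and −3.27 to −1.96 for these, fits with 2 libraries in a group assumed to vary like the rest. A replicate block over all groups, whose numbers do not pair Top 10 positive with Parental positive, gave UCA1 −3.57 there (adjusted p = 0.0333, edgeR). In the comparisons whose numbers paired, the block changed no other call of the 6. Described values that moved were UCA1 (5.29) and H19 (0.16) in Bottom 10 negative minus Top 10 negative without Top 10 negative replicate 3, and MALAT1 (−0.88) in Bottom 10 negative minus Bottom 5 negative without the libraries that stood apart. The cause was not tested. Without the libraries that stood apart, sign changes were, for EWSAT1, 0.1094 in Bottom 10 positive minus Parental positive and 0.0190 in Presorted negative minus Bottom 5 negative; for H19, −0.1819 in Presorted positive minus Presorted negative, −0.4205 in Top 10 positive minus Top 5 positive and 0.2946 in Top 5 positive minus Parental positive; for NEAT1, −0.0001 in Presorted positive minus Parental positive. For MALAT1 they were −0.3022 in Bottom 10 positive minus Presorted positive, −0.2381 in Bottom 10 positive minus Top 10 positive, −0.6966 in Presorted negative minus Bottom 5 negative and −0.4300 in Presorted negative minus Parental negative. For MEG3 they were −0.8972 in Presorted negative minus Bottom 5 negative, 0.5434 in Presorted positive minus Presorted negative, 0.2471 in Presorted positive minus Top 5 positive and −0.3134 in Top 5 positive minus Parental positive. In Presorted negative minus Bottom 5 negative, reported at 0.00 for MALAT1 and 0.01 for MEG3, no filter gave −0.0220 and −0.0149, only the groups compared −0.0198 and −0.0025, and the replicate block over 2 groups −0.4044 and −0.1771; the block over all groups gave MALAT1 −0.0406.

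Leaving out 1 library at a time, the ranges that crossed 0 were as follows. EWSAT1 ran from −0.2017 to 0.2337 in Bottom 10 positive and −0.0943 to 0.5643 in Top 5 positive, each minus Parental positive. H19 ran from −0.4303 to 0.1854 in Bottom 5 negative minus Parental negative, −0.1142 to 0.5015 in Parental positive minus Parental negative, −0.1871 to 0.8623 in Presorted positive minus Presorted negative, −0.7287 to 0.1096 in Top 10 positive minus Parental positive, −0.3037 to 0.8842 in Top 10 positive minus Top 5 positive and −1.0033 to 0.0481 in Top 5 positive minus Parental positive. MALAT1 ran from −0.314 to 0.3391 in Bottom 10 positive minus Presorted positive, −0.2258 to 0.3481 in Bottom 10 positive minus Top 10 positive, −1.409 to 0.7011 in Presorted negative minus Bottom 5 negative and −0.4253 to 1.4283 in Presorted negative minus Parental negative. MEG3 ran from −0.1402 to 1.1625 in Bottom 10 positive minus Presorted positive, −0.7875 to 0.3191 in Presorted negative minus Bottom 5 negative, −0.941 to 0.3617 in Presorted positive minus Parental positive and −1.13 to 0.5481 in Presorted positive minus Presorted negative. NEAT1 ran from −0.132 to 0.4663 in Bottom 10 positive minus Top 10 positive, −0.2423 to 0.0274 in Parental positive minus Parental negative and −0.1353 to 0.2371 in Presorted positive minus Parental positive. UCA1 ran from −0.3518 to 0.5703 in Presorted negative minus Bottom 5 negative and −0.4047 to 0.203 in Presorted positive minus Parental positive.

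Genes called over the alternatives ran from 31 to 1130 for Bottom 10 positive minus Top 10 positive (145 as reported), 0 to 724 for Presorted negative minus Parental negative (308), 0 to 542 for Bottom 5 negative minus Parental negative (132) and 1 to 801 for Presorted positive minus Top 5 positive (315). Counting error is part of every value of low RNAs such as MEG3 and EWSAT1.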

Other observations

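PAQR5, a membrane progesterone receptor gene near EWSAT1, was higher in Presorted negative than in Parental negative cells (1.13 ± 0.30, edgeR adjusted p = 0.0464), where EWSAT1 was lower, and correlated with EWSAT1 at r = −0.64 over 30 libraries. The tested neighbours of UCA1 and H19 gave 0 calls by edgeR in 26 and 13 tests, with 4 each at an unadjusted p under 0.05. MIR675, the microRNA within H19, had 0 counts in every library, as had the microRNA genes nearest MEG3. Libraries of polyadenylated RNA are not made to capture mature microRNAs, so these counts do not measure them.

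MEG3 was most like GRIN1, RTN1 and CAMKV, genes of the nervous system (r = 0.87, 0.87 and 0.86 over 30 libraries), all at or below 5.29 CPM. Log2 MEG3 also gave r = −0.59 with a library's gene counts and 0.49 with the share of reads that matched more than 1 place. H19 was most like AGPAT6 (r = 0.88), RBM19 and STK40 (0.86 each) and most opposite to RNF149 (−0.88). Log2 H19 gave r = −0.64 with the share of reads that matched more than 1 place (rank correlation −0.21). The part of these library properties in the likenesses was not tested.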
